A study of Homo sapiens with 12 samples.

Results

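The cytochrome P450 (CYP) genes outside family 1 were examined in HepG2 cells with altered thiosulfate sulfurtransferase (TST), the mitochondrial enzyme that turns cyanide into thiocyanate. The comparisons address which P450 transcripts differ when TST is silenced or overexpressed. Members were all protein-coding genes with a GENCODE 29 symbol built as CYP, a family number, subfamily letters and a gene number, leaving out CYP1A1, CYP1A2, CYP1B1 and CYP51A1. This rule used no measured value, though members were chosen with earlier results of these data known. It gave 51 of the 19737 protein-coding genes, and 22 of the 51 had enough counts to be tested. HepG2 is a human hepatocellular carcinoma line, and its RNA was sequenced in 3 groups of 4 libraries. WT libraries came from control cells of the parental genotype. The shTST libraries came from HepG2 cells given a TST shRNA by lentivirus, and the overTST libraries from HepG2 cells given a codon-optimised TST coding sequence behind the CMV promoter by lentivirus. Per the study's methods both lines were selected with blasticidin, and all 3 groups were kept in medium with 400 µM glycine for 24 h. The methods do not describe the lines as single clones, and an empty-vector or scrambled-shRNA control for these libraries is not given in the sources used here, so transduction and selection cannot be told apart from the change in TST. The study's statistics section treats experiments done on separate days as biological replicates in general, but neither it nor the labels say which kind these libraries are, so p-values measure the spread between these libraries, which may be technical.

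P450s are heme-thiolate enzymes that insert oxygen into lipids, steroids, vitamins and drugs, and the liver is the main site of drug oxidation by families 2 and 3. Microsomal P450s receive electrons from P450 reductase (POR), with help from cytochrome b5, while mitochondrial P450s such as CYP27A1 and CYP24A1 use ferredoxin and ferredoxin reductase. Many hepatic P450 genes are under the control of nuclear receptors, among them PXR (NR1I2), CAR (NR1I3), FXR (NR1H4), PPARα (PPARA) and the vitamin D receptor (VDR), and hepatoma lines are known for low levels of many drug-metabolising P450s.

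The feature that unites the family is a loop around the cysteine that holds the heme iron. The 30 coding bases around that codon, taken from the GENCODE 29 transcripts on GRCh38, are shown for members that passed the test in at least 1 comparison. The cysteine codon is in capitals. The stretch shows how alike the members are in this loop, not how many reads could be confused between them.
CYP24A1: tttggcgttggaaaaagaatgTGCattggt
CYP2W1: ttctctgcaggccgccgcgtcTGTgttggg
CYP2S1: ttctccttagggaagcgtgtcTGCcttgga
CYP19A1: tttggctttgggccccgtggcTGTgcagga
CYP2U1: tttgggatagggaagcgggtgTGTatggga
CYP3A5: tttggaactggacccagaaacTGCattggc
CYP3A7: tttggaagtggacccagaaacTGCattggc
CYP4F2: ttctcggcagggcccaggaacTGCatcggg
CYP4F3: ttctcagcagggcccaggaacTGCatcggg
CYP4F11: ttctcggcagggcccagaaacTGCatcggg
CYP3A5 and CYP3A7 differed at 1 base of this stretch, as did CYP4F2 and CYP4F3, while over the aligned coding bases the first pair had 88.6% identity and the second 91.5%. CYP4F11 and CYP4F2 also differed at 1 base, with 88.9% identity over the coding bases. The stretch of CYP7A1 is not shown here. No stretch is given for CYP20A1, whose coding sequence held no match to the pattern searched (in the protein, phenylalanine, any 2 residues, glycine or alanine, any 3 residues, cysteine, any residue, and glycine or alanine).

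Reads that cannot be assigned to 1 paralog may bear on several of these values. In CYP3A7, 75.3% of the 50-base windows of its transcript also occurred in transcripts of other genes, mostly in the read-through gene CYP3A7-CYP3A51P, which had 0 to 2 counts per library. Shared windows made up 61.2% of CYP21A2 (its pseudogene CYP21A1P) and 42.2% of CYP2D6 (CYP2D7). They made up 17.6% of CYP4F2 and 10.1% of CYP4F3, mostly with each other. They made up 4.9% of CYP3A5, 2.0% of CYP2U1, 1.0% of CYP4F11 and 0.4% of CYP2W1, and 0% of CYP24A1, CYP19A1, CYP20A1, CYP27A1, CYP2S1 and CYP7A1. Levels of CYP3A7, CYP21A2, CYP2D6, CYP4F2 and CYP4F3 are therefore uncertain. The use of strand in counting is not given in the sources used here. If strand was not used, reads of overlapping genes on opposite strands cannot be told apart. The antisense gene AC090826.1, with 1 to 6 counts per library, overlaps 21.2% of the exonic length of CYP11A1. TNXB, with 25 to 88 counts, overlaps 10.2% of CYP21A2. ACKR2, with 45 to 87 counts, overlaps 3.2% of CYP8B1. Other tested members had such overlaps too.

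Libraries held 22911380 to 45120508 counts, with every overTST library below every WT library in total. Values per library are given as CPM, counts per 1000000 of library size after TMM scaling over all 12 libraries, while fold changes come from the fit of each comparison, so they can differ slightly from the ratio of the printed means. TST was at 47.2, 47.5, 52.8 and 48.5 CPM in WT, 33.0, 33.6, 36.6 and 33.5 in shTST and 51.8, 56.0, 61.6 and 62.1 in overTST. Every shTST library was below every WT library, and the WT and overTST libraries overlapped. In edgeR's quasi-likelihood test TST fell with shTST (log2 fold change −0.52, adjusted p = 3.20e-06) and rose with overTST (0.24, adjusted p = 0.00384). After a correction for gene length the overTST value was 0.10 (edgeR adjusted p = 0.201), and a codon-optimised transgene need not be counted on the native gene. All 8 hepatocyte markers were tested, and their summed level was 23064 to 26062 CPM in WT, 24285 to 28547 in shTST and 21377 to 25875 in overTST. Single markers moved in both directions. With shTST, edgeR called ALB (log2 fold change 0.39), AFP (0.49), FGB (0.44) and TF (0.41) higher and TTR (−0.33) and APOB (−0.19) lower. With overTST it called APOA1 (0.24) and TTR (0.16) higher and APOB (−0.55) lower, and between the lines 5 of the 8 were higher and 1 lower in shTST. Summed fibroblast markers were at 21.5 to 25.2 CPM in WT, 17.0 to 19.4 in shTST and 15.9 to 17.9 in overTST. PDGFRB made up most of this sum, and LUM was at 0 in all libraries. Summed endothelial markers were at 2.51 to 3.29, 1.81 to 2.16 and 3.40 to 3.91 CPM, with KDR at 0. They did not move together. With overTST, edgeR called PECAM1 higher (log2 fold change 0.60, adjusted p = 0.00278) and CDH5 lower (−1.31, adjusted p = 0.0129). With shTST it called neither. Of the leukocyte list LYZ accounted for nearly all of 1332 to 1747 CPM, while PTPRC and CD3E were at 0 in WT and overTST. In bulk RNA, fewer cells that express a gene and less RNA per cell cannot be told apart. The part of these markers in the results below was not tested.

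P450 transcripts were dominated by a few genes. The 51 members together took 510 to 550 of every 1000000 counts in WT, 486 to 517 in shTST and 501 to 515 in overTST. CYP27A1, the mitochondrial sterol 27-hydroxylase, took 43.6 to 50.98% of all P450 counts, CYP2W1, a P450 known from tumours and fetal gut, took 20.8 to 25.03%, and CYP24A1, which degrades active vitamin D, took 4.01 to 11.1%. These 3 genes together held 77.4 to 80.2% in every library. At the other end, 27 members stayed under 10 counts in every library, and 7 of these had no count in any of the 12.

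**Figure D1:**
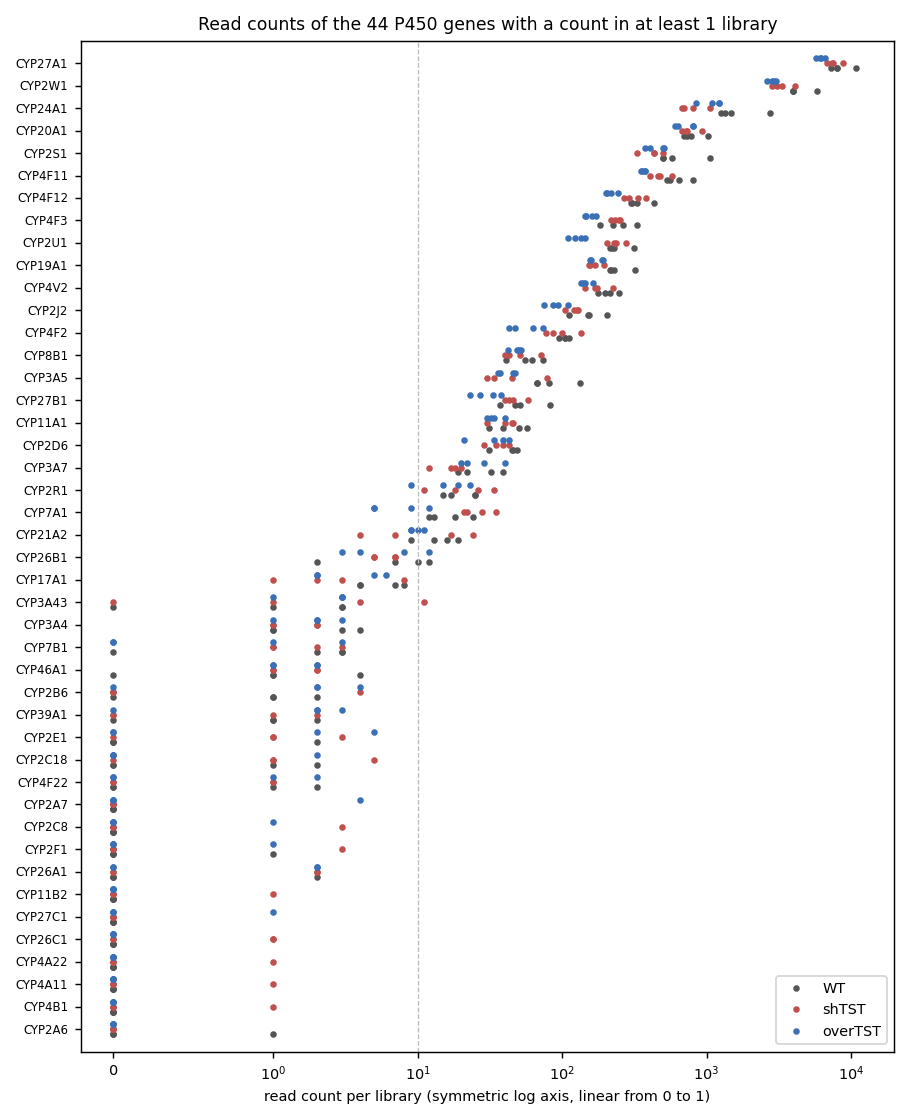
Read counts of the 44 P450 genes with a count in at least 1 library (rows) in the 12 libraries, on a symmetric log axis that is linear from 0 to 1, with grey points for WT, red for shTST and blue for overTST; the dashed line marks 10 counts. The upper rows hold the tested genes, led by CYP27A1. The lower rows hold the untested genes, under 10 counts in every library except CYP26B1 (up to 12) and CYP3A43 (up to 11).

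Most of the drug and xenobiotic P450s listed, several of adult liver among them, were at or near 0. CYP2C19 and CYP2A13 had 0 counts in all 12 libraries, which allows up to 3 counts, or 0.00834 CPM, over the 359610500 counts together. CYP3A4, the main drug-oxidising P450 of adult liver, had 1 to 4 counts per library, CYP2E1 had 0 to 5, CYP2B6 0 to 4, CYP2C8 0 to 3, CYP2C18 0 to 5, CYP2A6 0 to 1, CYP2A7 0 to 4, CYP2F1 0 to 3 and CYP3A43 0 to 11. For these a change between groups was not detectable at this depth. Of the 15 drug and xenobiotic P450s only CYP3A5, CYP3A7 and CYP2D6 were tested.

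The other untested members were spread over the remaining roles. Among fatty acid P450s, CYP4F8 had 0 counts throughout, CYP4F22 had 0 to 2, and CYP4A11, CYP4A22 and CYP4B1 each had 1 count, all in shTST replicate 2. Among steroid and sterol P450s, CYP11B1 had 0 counts throughout, CYP11B2 had 1 count in shTST replicate 2, CYP17A1 had 1 to 8 per library, CYP7B1 0 to 3, CYP39A1 0 to 3 and CYP46A1 0 to 4. The retinoic acid hydroxylase CYP26B1 had 2 to 12 counts per library, CYP26A1 0 to 2, CYP26C1 0 to 1 and the retinoid desaturase CYP27C1 0 to 1, while CYP4X1 and CYP4Z1 had none. The library shTST replicate 2 stood apart here. It held a count on 14 of the 27 low members, against 5 to 10 in the other libraries, and on 24354 genes in all, against 21107 to 22906.

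Levels of different genes can be compared only per length, and were set in WT as CPM per kilobase of exonic length (RPKM). CYP27A1 was at 81.6 ± 1.37 RPKM (SD, n = 4), CYP2W1 at 45.8 ± 2.17 and CYP24A1 at 11.97. Each of these 3 genes lay above the next in every WT library. CYP20A1 followed at 7.503, CYP2S1 at 6.38 and CYP4F11 at 4.53 RPKM. CYP20A1 and CYP2S1 overlapped among WT libraries, and CYP4F11 stood apart from CYP4F12 at 1.83. From CYP4F12 down to CYP19A1 at 0.832 RPKM every neighbour in the order overlapped the next, and the same held from CYP4V2 at 0.613 to CYP11A1 at 0.361. CYP3A7 at 0.224, CYP7A1 at 0.170, CYP21A2 at 0.141 and CYP2R1 at 0.130 RPKM were the lowest tested and also overlapped in turn.

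**Figure D2:**
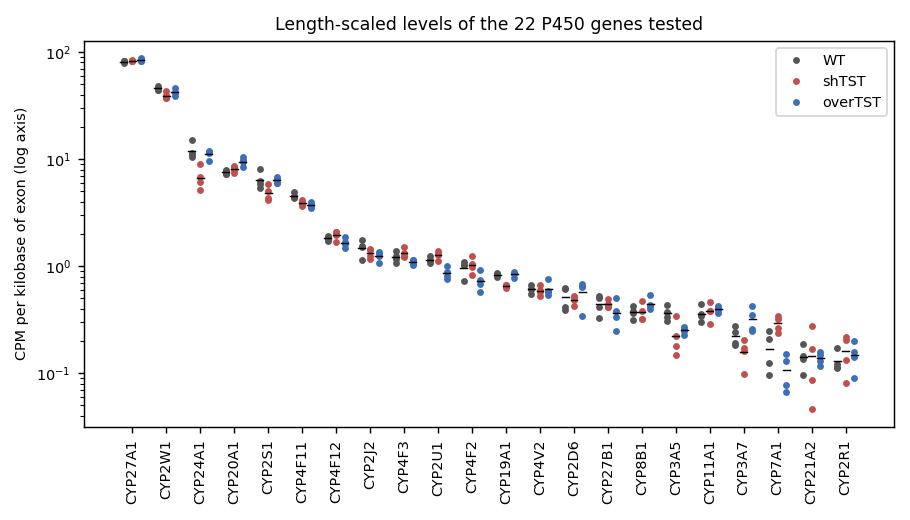
Levels of the 22 tested P450 genes, in the order of their WT means, as CPM per kilobase of exon on a log axis; each point is a library, grey for WT, red for shTST and blue for overTST, and each black line is a group mean. CYP27A1, at 81.6 in WT, lies above all others in each group, and CYP24A1 has its red points below its grey ones.

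With TST silenced, 6 of the 22 tested P450 genes were lower than in WT and none was higher. The share of 27.3% compares with 16.1% among all 14584 genes tested by edgeR at an adjusted p of 0.05 (9.40% lower, 6.69% higher). The median log2 fold change over the 22 genes was 0.0025, next to 0.0040 over all genes. On the higher side, 1 member, CYP7A1, had an unadjusted edgeR p under 0.05. With limma-voom 1 member was called higher, and DESeq2, which gave CYP7A1 no adjusted p, called 0. CYP7A1 is described with the direct comparison. Without shTST replicate 1 the count of lower members was 3, and that of all genes called fell from 2346 to 1513. Of all calls 41.6% were higher, or 52.7% with upper-quartile scaling, under which 5 members were lower and none higher. The 6 genes belonged to 5 roles, namely vitamin D (CYP24A1), drugs (CYP3A5), steroid hormones (CYP19A1), fatty acids (CYP4F11) and P450s of little known substrate (CYP2S1 and CYP2W1).

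CYP24A1 (ENSG00000019186, chr20:54153449-54173973 in GRCh38), the mitochondrial 24-hydroxylase that inactivates vitamin D and a known target of VDR, had the smallest adjusted p of the 6. It was at 45.5, 60.3, 43.1 and 41.2 CPM in WT, 24.2, 35.5, 20.3 and 26.9 in shTST and 45.2, 46.2, 47.8 and 38.2 in overTST. All 4 shTST libraries lay below all WT and all overTST libraries, and 1 WT library, replicate 2, was higher than the others. The level was 1.79-fold lower with shTST (log2 fold change −0.84, SE 0.12, edgeR adjusted p = 9.50e-05), and no alternative or left-out library ended the call. In overTST the value was −0.10 (SE 0.09, adjusted p = 0.403). The other vitamin D P450s did not pass in either comparison with WT. The activating 1α-hydroxylase CYP27B1 was at 1.53 ± 0.303 CPM in WT, 1.52 ± 0.116 in shTST and 1.26 ± 0.363 in overTST (SD, n = 4 each), and the 25-hydroxylase CYP2R1 at 0.587 ± 0.122, 0.720 ± 0.291 and 0.665 ± 0.206. VDR itself was at 0.277, 0.747, 0.407 and 0.889 CPM in WT and 0.823, 0.871, 0.754 and 1.13 in shTST, with a log2 fold change of 0.59 (SE 0.30, edgeR adjusted p = 0.193).

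CYP19A1 (ENSG00000137869, chr15:51208057-51338610), the aromatase that converts androgens to estrogens, was lower in shTST than in both other groups. It was at 7.01, 7.07, 7.27 and 6.72 CPM in WT, 5.48, 5.23, 5.65 and 5.61 in shTST and 7.13, 6.61, 7.502 and 7.23 in overTST. The shTST libraries did not overlap either group. The log2 fold change against WT was −0.35 (SE 0.092, edgeR adjusted p = 0.0116) and that of overTST was 0.02 (SE 0.097). Of the other steroid P450s tested, the side-chain cleavage enzyme CYP11A1 was at 1.26 ± 0.204, 1.32 ± 0.247 and 1.39 ± 0.0997 CPM in WT, shTST and overTST (SD, n = 4 each), and the 21-hydroxylase CYP21A2 at 0.409 ± 0.109, 0.418 ± 0.293 and 0.402 ± 0.0536. Neither passed in any comparison.

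CYP2W1 (ENSG00000073067, chr7:983199-989640) and CYP2S1 (ENSG00000167600, chr19:41193049-41207539) are P450s of little known substrate found mainly outside adult liver. CYP2W1 was at 123, 129, 135 and 122 CPM in WT, 102, 103, 119 and 111 in shTST and 107, 128, 116 and 119 in overTST. The shTST libraries lay below the WT libraries without overlap, while those of overTST overlapped both. Its log2 fold change was −0.22 with shTST (SE 0.051, edgeR adjusted p = 0.00501) and −0.12 with overTST (SE 0.055, adjusted p = 0.107), which passed after the length correction (−0.20, adjusted p = 0.00387) and without overTST replicate 2 (−0.16, adjusted p = 0.0363). Between the lines its log2 difference was −0.11 (SE 0.057, edgeR adjusted p = 0.155), which passed without shTST replicate 3 (0.0448) or overTST replicate 1 (0.0369). CYP2S1 was at 15.4, 23.1, 17.0 and 17.8 CPM in WT, 11.8, 16.7, 12.6 and 14.4 in shTST and 18.9, 17.1, 19.7 and 17.0 in overTST. Replicate 2 of shTST reached into the WT range, and all shTST libraries lay below all overTST libraries. The log2 fold change with shTST was −0.41 (SE 0.11, edgeR adjusted p = 0.0131), a call lost with DESeq2 (adjusted p = 0.0795), with limma-voom (0.0542) and without WT replicate 2 (0.0529) or shTST replicate 1 (0.066).

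CYP3A5 (ENSG00000106258, chr7:99648194-99679998), a drug- and steroid-oxidising P450, and CYP4F11 (ENSG00000171903, chr19:15912367-15934867), an ω-hydroxylase of fatty acids and vitamin K, were lower in both lines than in WT. The 2 comparisons share the WT libraries, so they are not independent of each other. CYP3A5 was at 2.06, 2.92, 2.28 and 2.48 CPM in WT, 1.22, 1.51, 2.29 and 0.996 in shTST and 1.75, 1.52, 1.82 and 1.68 in overTST. All overTST libraries lay below WT, and shTST replicate 3 lay within the WT range. The log2 fold change was −0.69 with shTST (SE 0.21, edgeR adjusted p = 0.0256) and −0.53 with overTST (SE 0.17, adjusted p = 0.0186). Leaving out WT replicate 2 (adjusted p = 0.083) or 4 (0.0505), or shTST replicate 1 (0.0962) or 4 (0.0991), ended the first call. The second was lost without WT replicate 2 (0.0901) or overTST replicate 2 (0.0582) and under the replicate block with the length correction (0.072). CYP4F11 was at 17.3, 17.7, 18.1 and 19.9 CPM in WT, 14.6, 16.0, 16.7 and 15.2 in shTST and 14.1, 14.9, 14.8 and 16.1 in overTST. Both lines lay below every WT library. Its log2 fold change was −0.22 with shTST (SE 0.07, edgeR adjusted p = 0.0329) and −0.285 with overTST (SE 0.076, adjusted p = 0.00524). The shTST call was lost with upper-quartile scaling (adjusted p = 0.0546) and without WT replicate 4 (0.146) or shTST replicates 1 (0.124), 2 (0.0545) or 4 (0.0945), and the overTST call held under all alternatives.

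The 250 bases before the annotated start of these 2 genes (RefSeq, GRCh38.p14, minus strand, printed 5′ to 3′) are shown because they were the only members called in the same direction against WT in both lines, and capitals mark AGGTCA, the nuclear receptor half-site.
CYP3A5 chr7:99679997-99680246: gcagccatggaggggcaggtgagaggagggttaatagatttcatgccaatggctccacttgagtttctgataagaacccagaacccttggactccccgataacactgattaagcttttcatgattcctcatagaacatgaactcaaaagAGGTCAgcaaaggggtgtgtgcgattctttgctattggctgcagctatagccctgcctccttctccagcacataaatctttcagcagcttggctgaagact
CYP4F11 chr19:15934868-15935117: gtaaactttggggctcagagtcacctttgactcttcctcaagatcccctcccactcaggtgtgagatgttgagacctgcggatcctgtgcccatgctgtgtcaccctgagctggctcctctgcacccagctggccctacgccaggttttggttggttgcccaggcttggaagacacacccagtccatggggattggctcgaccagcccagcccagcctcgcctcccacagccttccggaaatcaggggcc
The CYP3A5 promoter window, 300 bases long with the 50 bases after the start, held 1 AGGTCA, at −101, and no TATAAA, both searched on either strand, and the CYP4F11 window held neither, nor did the window of a second start that RefSeq lists for CYP4F11. AGGTCA was found in 13.8% of all 35116 promoter windows and in 7 of the 26 windows of tested P450 genes, and TATAAA in 11.5% and in 3 of 26. A match is a description of letters only.

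With TST overexpressed, 1 of the 22 tested P450 genes was higher than in WT and 3 were lower. The share of 18.2% compares with 33.9% among all 14421 genes tested (15.7% higher, 18.2% lower), and the median log2 fold change was −0.06, against 0.0019 over all genes. Over all genes the change had a rank correlation of −0.404 with exonic length in this comparison (14421 genes) and of −0.09 with shTST (14584 genes), and values after a length correction are given where they changed a call. The lower genes were CYP3A5 and CYP4F11, given above, and CYP2U1.

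CYP20A1 (ENSG00000119004, chr2:203238940-203305611), an orphan P450 without a known physiological substrate, was the gene that rose. It was at 24.1, 22.3, 23.6 and 22.3 CPM in WT, 25.7, 22.8, 26.8 and 24.4 in shTST and 30.2, 25.8, 32.0 and 28.9 in overTST. All overTST libraries lay above all WT libraries, and the shTST libraries overlapped both. The rise was 1.27-fold (log2 fold change 0.34, SE 0.071, edgeR adjusted p = 6.16e-04) and was called under every alternative, the length correction included. With shTST the value was 0.11 (SE 0.063, adjusted p = 0.237).

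CYP2U1 (ENSG00000155016, chr4:107931369-107953457), a hydroxylase of long-chain fatty acids, fell in overTST. It was at 7.01, 6.96, 7.57 and 6.53 CPM in WT, 8.52, 7.70, 8.09 and 6.80 in shTST and 4.59, 6.06, 5.37 and 4.96 in overTST. The overTST libraries lay below all 8 others. The log2 fold change was −0.42 (SE 0.11, edgeR adjusted p = 0.00459), called under every alternative, and 0.15 with shTST (SE 0.094, adjusted p = 0.3).

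**Figure D3:**
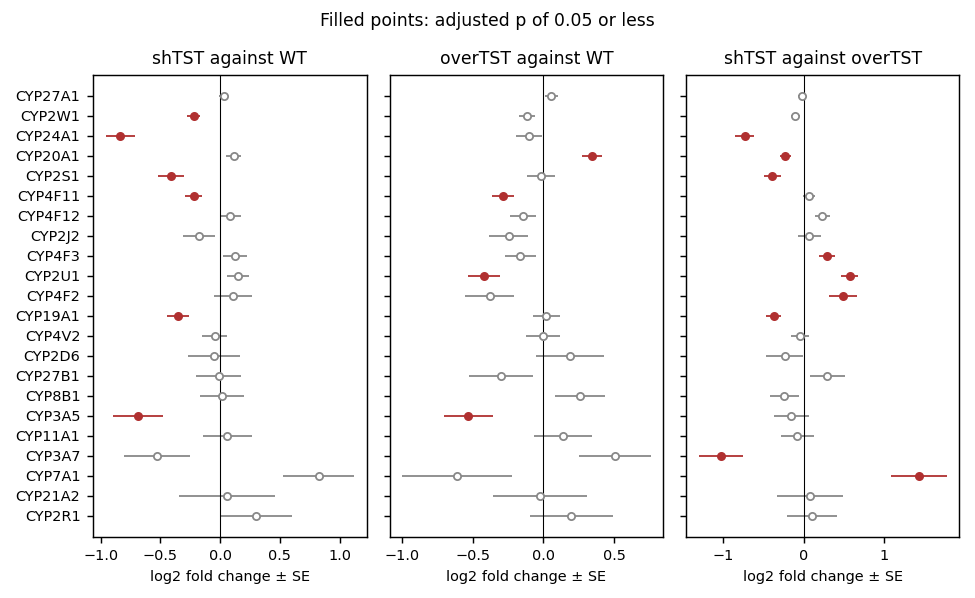
Log2 fold changes of the 22 tested P450 genes, with bars for the standard error, in shTST against WT (left), overTST against WT (middle) and shTST against overTST (right), in the order of their WT level per length; filled points passed an adjusted p of 0.05. Filled points are 6 on the left, 4 in the middle and 9 on the right, and the scales of the 3 panels differ.

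Between the lines themselves, 9 of the 22 genes differed, 4 higher and 5 lower in shTST than in overTST. Without overTST replicate 2 the counts were 2 higher and 5 lower. Over all genes the difference had a rank correlation of 0.357 with exonic length, and after the length correction the counts were 3 higher and 4 lower. The share of 40.9% compares with 33.0% among all 14883 genes tested (16.9% higher, 16.1% lower), and the median log2 difference was −0.04. This contrast was made in a fit of all 12 libraries, in which the WT libraries entered the filter, the scaling and the estimate of the spread. A fit of the shTST and overTST libraries alone tested 14454 genes and also called 4 members higher and 5 lower. Of the 9, CYP24A1 (log2 difference −0.73, edgeR adjusted p = 6.01e-05), CYP2S1 (−0.39, 0.00706), CYP19A1 (−0.37, 0.00303) and CYP20A1 (−0.23, 0.0122) were lower in shTST, and CYP2U1 was higher (0.57, 2.11e-04). The CYP20A1 difference was lost after the length correction (adjusted p = 0.0563) and without shTST replicate 2 (0.0559) or overTST replicate 3 (0.0679). CYP3A5 and CYP4F11, lower than WT in both lines, had log2 differences of −0.16 (SE 0.22) and 0.06 (SE 0.073) between the lines.

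The other 4 genes had passed in neither comparison with WT. CYP7A1 (ENSG00000167910, chr8:58490178-58500236), the rate-limiting enzyme of bile acid synthesis from cholesterol, was at 0.369, 0.285, 0.611 and 0.736 CPM in WT, 0.787, 0.938, 1.01 and 0.697 in shTST and 0.448, 0.381, 0.197 and 0.227 in overTST. The shTST libraries lay above all overTST libraries, and WT overlapped both. The difference was 2.7-fold (log2 difference 1.43, SE 0.35, edgeR adjusted p = 0.00241) on 5 to 35 counts per library. Against WT its log2 fold change was 0.83 with shTST (SE 0.30, adjusted p = 0.06) and −0.61 with overTST (SE 0.39, adjusted p = 0.238), and the shTST value passed with limma-voom (adjusted p = 0.0346) and without WT replicate 4 (0.0293). The other bile acid P450s did not pass in any comparison. The 12α-hydroxylase CYP8B1 was at 1.65 ± 0.210 CPM in WT, 1.66 ± 0.312 in shTST and 1.99 ± 0.260 in overTST (SD, n = 4 each). CYP27A1, with the most counts of all members, was at 243 ± 4.09, 248 ± 3.99 and 253 ± 8.71 CPM, and its log2 fold changes against WT were 0.03 (SE 0.039) and 0.06 (SE 0.046).

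CYP3A7 (ENSG00000160870, chr7:99705037-99735196), the CYP3A form of fetal liver, was at 0.984, 0.857, 0.645 and 0.675 CPM in WT, 0.716, 0.603, 0.348 and 0.564 in shTST and 1.49, 1.23, 0.869 and 0.909 in overTST. Every shTST library lay below every overTST library, and both overlapped WT. The log2 difference was −1.03 (SE 0.28, edgeR adjusted p = 0.00533) on 12 to 40 counts per library. Against WT it was −0.53 for shTST (adjusted p = 0.202) and 0.51 for overTST (adjusted p = 0.125). In its neighbour CYP3A5 both values against WT were negative, as given above. CYP2D6, the remaining drug P450 tested, was at 1.25 ± 0.309 CPM in WT, 1.19 ± 0.112 in shTST and 1.41 ± 0.388 in overTST (SD, n = 4 each) and passed in no comparison.

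CYP4F2 (ENSG00000186115, chr19:15878023-15898120) and CYP4F3 (ENSG00000186529, chr19:15615617-15662825), ω-hydroxylases of arachidonic acid and leukotriene B4, were higher in shTST than in overTST. CYP4F2 was at 3.44, 2.28, 3.23 and 3.22 CPM in WT, 3.08, 2.58, 3.94 and 3.32 in shTST and 2.35, 1.82, 2.92 and 2.14 in overTST. The 2 lines overlapped, and the log2 difference was 0.48 (SE 0.17, edgeR adjusted p = 0.0334), a call lost without shTST replicate 3 (adjusted p = 0.132) or 4 (0.0653) or overTST replicate 2 (0.122) or 4 (0.0799). CYP4F3 was at 8.12, 7.29, 6.21 and 6.87 CPM in WT, 8.84, 7.84, 7.33 and 7.20 in shTST and 5.97, 6.10, 6.75 and 6.68 in overTST. Its lines did not overlap, and the log2 difference was 0.29 (SE 0.10, edgeR adjusted p = 0.0322), lost after the length correction (adjusted p = 0.0858) and without shTST replicate 1 (0.128) or 2 (0.06) or overTST replicate 1 (0.0758) or 2 (0.079). The transcripts of CYP4F2 and CYP4F3 have sequence windows in common, as given above, so their values may not be independent. Whether reads were shared between these genes was not tested. In overTST against WT the CYP4F2 value was −0.38 (SE 0.17, adjusted p = 0.0965), which passed without WT replicate 2 (0.0259) or overTST replicate 3 (0.0441) and under the replicate block with the length correction (0.0323). Of the other fatty acid P450s, CYP4F12 was at 9.82 ± 0.487, 10.4 ± 1.03 and 8.89 ± 0.853 CPM in WT, shTST and overTST (SD, n = 4 each). The arachidonic acid epoxygenase CYP2J2 was at 4.43 ± 0.743, 3.93 ± 0.414 and 3.73 ± 0.396 CPM. CYP4V2, an ω-hydroxylase mutated in a retinal dystrophy, was at 6.01 ± 0.475, 5.78 ± 0.550 and 6.01 ± 0.987 CPM. None of these 3 passed in a comparison of all libraries. The CYP4F12 log2 difference between the lines was 0.23 (SE 0.092, edgeR adjusted p = 0.0581), which passed without shTST replicate 2 (0.0205) or overTST replicate 4 (0.0325).

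**Figure D4:**
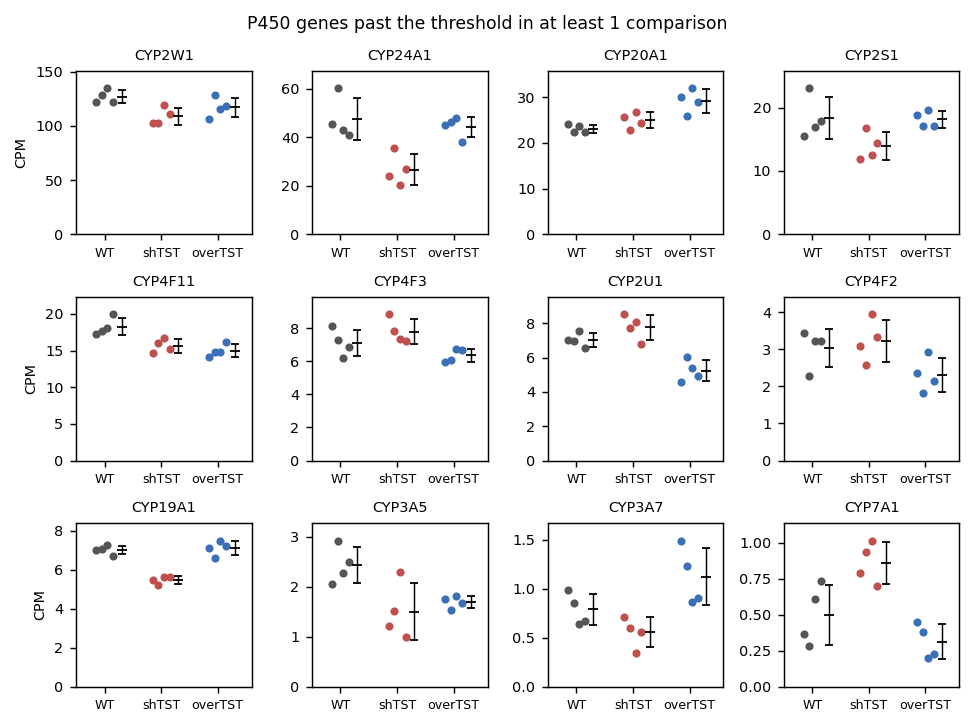
CPM of the 12 P450 genes that passed in at least 1 comparison, on linear axes from 0; each point is a library, and the bar beside the points is the group mean with its SD (n = 4). CYP24A1 and CYP19A1 have all shTST points below both other groups, CYP2U1 has all overTST points below both, and CYP20A1 has its overTST points above WT.

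Groups that did not overlap were counted apart from the test. In shTST and WT this held for 4 of the 22 genes, all lower, with 19.1% of all genes apart (8.37% higher, 10.8% lower). In overTST and WT it held for 4 (1 higher, 3 lower), against 30.4% of all genes (14.2% higher, 16.2% lower), and between the lines for 7 (3 higher, 4 lower), against 29.2% (14.5% higher, 14.7% lower). All of these genes were also called by edgeR.

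All 9 redox partners of the P450s, among them their electron donors, were tested. Of the 9, edgeR called 1 with shTST (16.1% of all genes), 3 with overTST (33.9%) and 2 between the lines (33.0%). CYB5A, microsomal cytochrome b5, rose in both lines, from 113, 104, 119 and 117 CPM in WT to 135, 122, 135 and 129.9 in shTST (log2 fold change 0.20, edgeR adjusted p = 0.00626) and 129.99, 138.86, 130.53 and 137.24 in overTST (0.24, 7.93e-04). Both lines lay above every WT library. In overTST CYB5R3, cytochrome b5 reductase (0.19, adjusted p = 0.0154), and the mitochondrial ferredoxin FDX1 (0.19, adjusted p = 0.0249) also rose, but FDX1 was lost after the length correction (adjusted p = 0.111), without the filter (0.127) and without WT replicate 2 (0.0699) or 4 (0.0613) or overTST replicate 3 (0.0749). CYB5R3 was lost without WT replicate 1 (adjusted p = 0.0712) or overTST replicate 4 (0.0918). Between the lines CYB5R3 was lower (−0.29, adjusted p = 0.00102) and PGRMC2, a heme-binding partner of P450s, higher in shTST (0.12, adjusted p = 0.0384), the latter lost under several alternatives, among them the length correction (0.0687) and the fits without any 1 of 6 libraries (0.0588 to 0.114). POR, the donor of all microsomal P450s, had log2 fold changes of −0.10 (SE 0.048) with shTST and 0.02 (SE 0.05) with overTST and passed in neither.

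Of 16 regulators of P450 genes, 15 were tested and RARB was not. Of the 15, edgeR called 3 with shTST (16.1% of all genes), 2 with overTST (33.9%) and 6 between the lines (33.0%). With shTST the bile acid receptor NR1H4 rose (log2 fold change 0.22, edgeR adjusted p = 0.00665), and NR0B2, the corepressor SHP that represses CYP7A1, fell (−0.32, adjusted p = 0.00431), as did the oxysterol receptor NR1H3 (−0.23, adjusted p = 0.00674). NR0B2 was at 32.1, 38.8, 43.6 and 41.5 CPM in WT, 32.9, 31.5, 30.6 and 29.8 in shTST and 37.2, 41.0, 48.4 and 48.3 in overTST. The shTST libraries lay below all overTST libraries and overlapped WT. With overTST, PPARA fell (−0.43, adjusted p = 2.25e-05), from 33.3, 32.3, 29.8 and 32.2 CPM in WT to 24.3, 22.2, 24.2 and 24.1, and every overTST library lay below WT. HNF4A, a hepatocyte transcription factor, also fell (−0.15, adjusted p = 0.0125), which was lost after the length correction (−0.06, adjusted p = 0.375). Between the lines NR1I2 (0.29), HNF4A (0.19), PPARA (0.34) and the glucocorticoid receptor NR3C1 (0.31) were higher in shTST, and NR0B2 (−0.49) and RARA (−0.21) lower, with edgeR adjusted p from 8.21e-05 to 0.0227. Leaving out shTST replicate 2 ended the NR1I2 call (adjusted p = 0.0684), and leaving out shTST replicate 1 (0.0958) or overTST replicate 2 (0.101) or 4 (0.071) ended that of RARA. Whether these genes act on the P450 values was not tested.

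**Figure D5:**
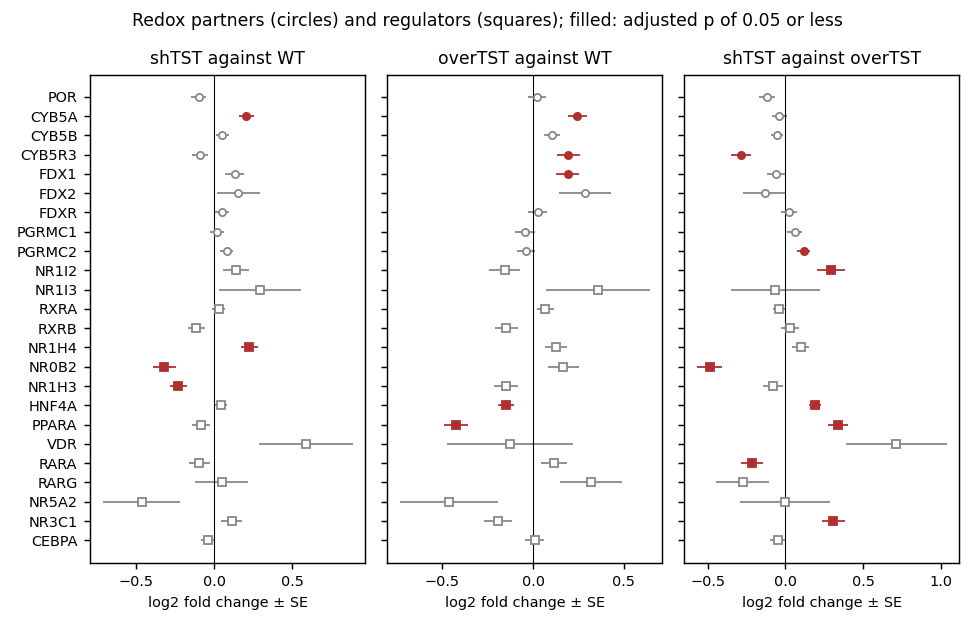
Log2 fold changes with standard errors of 9 redox partners (circles) and 15 tested regulators (squares) in the 3 comparisons; filled symbols passed an adjusted p of 0.05. CYB5A is filled on the right of 0 in both comparisons with WT, and PPARA is filled on the left of 0 in overTST against WT.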

How the data were processed

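RNA of 12 HepG2 libraries was measured by RNA sequencing. Per the submitters' processing notes, reads were trimmed with Trimmomatic 0.36, aligned with STAR 2.5.2b to GRCh38 and counted with featureCounts of Subread 1.5.2. The authors deposited whole-number read counts per Ensembl gene for each library, without normalization, with exonic length. The annotation release is not given in the sources used here, and 45 of the 51 members have the same span in GENCODE 29. Groups and replicate numbers came from the labels, glycine and time from the methods. Low counts were removed by the default filterByExpr of edgeR (minimum count of 10), TMM factors scaled the libraries, and edgeR's quasi-likelihood test was used with Benjamini-Hochberg adjusted p over all genes at 0.05, in 8 libraries for each comparison with WT and in 12 for the direct contrast. SE is the log2 fold change divided by the root of its F statistic. Depth of 22911380 to 45120508 counts puts the 3-count floor between 0.0665 and 0.131 CPM per library, which covers counting error only. Members and lists were chosen with earlier results of these data known, and members called, tested and untested were named, except 1 untested item that is not reported here, as were TST and the partners and regulators called. Libraries of a group differed by more than counting noise. The chi-square per gene was 5.87 to 35.3 in WT, 4.41 to 8.2 in shTST and 3.58 to 9.64 in overTST. Alternatives were DESeq2, limma-voom, RLE and upper-quartile scaling, the unfiltered table, genes above 1 CPM in 4 or more libraries, other samples in the fit, a length correction (lowess, span 0.3), the replicate block, both together, and leaving out each of 8 libraries. Scripts were tested on simulated data with 200 changed genes. R 4.3.3, edgeR 4.0.16, limma 3.58.1, DESeq2 1.42.0, Python 3.11.15, pandas 2.3.3, Biopython 1.88 and matplotlib 3.10.9 were used.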

Additional observations from a re-analysis of the deposited data

Results flagged for a closer look

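The tested P450 genes gave 66 groups of 4 libraries, and in 3 of them 1 library lay far from the others by Dixon's criterion, where chance gives about 1 in 20 groups. WT replicate 2 had 237.16 CPM of CYP27A1, against 245.20 to 245.58 in the other WT libraries. The overTST replicate 3 had 0.82914 CPM of CYP2D6, against 1.55 to 1.65 in the others. WT replicate 1 had 0.769 CPM of CYP2R1, against 0.509 to 0.549 in the others. None of these 3 genes passed in a comparison.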

How the results depend on the processing

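Of the 19 called values of P450 genes, 12 were called under every one of the 18 alternatives per comparison that gave an adjusted p, 7 were lost under at least 1, and none changed sign. Over the fits that each leave out 1 library, the count of P450 genes called in shTST against WT ranged from 3 (without shTST replicate 1) to 6, and the count of all genes from 1513 (without shTST replicate 1) to 2336. Without WT replicate 2 or shTST replicate 4 the P450 count was 4. The other total counts of calls, of P450 genes and of all genes, stayed within 1.5 times the main count. By direction, the P450 genes higher in shTST than in overTST numbered 2 without overTST replicate 2, against 4 with all libraries, and without WT replicate 4 there were 4 lower and 1 higher in shTST against WT. Deviations of same-numbered libraries of different groups had correlations of −0.053 to 0.08. Correlations over many genes can miss a pairing that touches few of them, so they cannot decide whether the numbers pair the samples. Between WT and shTST the same number gave the highest correlation for replicates 1, 2 and 3, and with overTST for replicate 1 only. Fits with the replicate number as a block called 6, 4 and 9 P450 genes in shTST against WT, overTST against WT and shTST against overTST. They called 2980, 5166 and 5232 genes in all, against 2346, 4893 and 4907 in the main fits, and lost none of the 19 calls. DESeq2 gave no adjusted p for CYP7A1 in any comparison, so that setting was left out for it, and the filter of more than 1 CPM dropped 4 of the 22 members, CYP7A1 and CYP3A7 among them. Upper-quartile scaling moved the share of higher genes among all calls from 41.6 to 52.7% in shTST against WT. Of 47 uncalled values of P450 genes, 18 changed sign under at least 1 alternative and 5 passed under at least 1, and the cause was not tested. Depth limits the 27 members under 10 counts, for which no change could be seen.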
